A study of Homo sapiens with 6 samples.

Results

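The genes described here encode the machinery that transcribes ribosomal DNA (rDNA): 7 subunits of RNA polymerase I (POLR1A, POLR1B, POLR1C, POLR1D, POLR1E, CD3EAP and TWISTNB) and 3 factors that bring the polymerase to the rDNA promoter (UBTF, RRN3 and TAF1D). They were chosen by name, as the rows of an RNA-seq table whose gene field held exactly that symbol. Where a symbol had more than 1 row, the row with the higher mean of both groups was taken. All 10 symbols were found, out of 27678 loci with a symbol and 41656 loci in all. Newer annotation calls CD3EAP POLR1G, TWISTNB POLR1F and ZNRD1, a further subunit used for comparison, POLR1H.

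RNA polymerase I works on a single kind of template, the tandem rDNA repeats of the nucleolus, and makes the long precursor from which the 18S, 5.8S and 28S ribosomal RNAs are cut. The upstream binding factor UBTF coats the active repeats and the SL1 complex, made of TBP and TAF1 subunits, marks the promoter. RRN3, also called TIF-IA, joins the polymerase to SL1 and is a point where growth signals act. The genes of these proteins are themselves transcribed by RNA polymerase II, so their mRNAs are measured here and not the output of RNA polymerase I.

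The cells were MCF10A, a non-tumorigenic human line established from breast epithelium, which grows in medium with epidermal growth factor, insulin, hydrocortisone, cholera toxin and horse serum. Of the 6 samples, 3 were transfected with a non-targeting control siRNA (siNT) and 3 with siRNAs against PAX9 (siPAX9), a paired-box transcription factor. Both groups received siRNA at 30 nM and were harvested after 72 hours, and no untransfected sample is among them. The deposited table gives 1 FPKM per locus and group, a level scaled to transcript length and to the mapped reads of a library, in which the authors combined the 3 samples.

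Because the table holds no value for a single sample, no spread between replicates, no interval and no test could be computed, and the table does not give the number of reads behind an FPKM. Every value below is therefore the authors' pooled value, and a difference is given as a size with no statement of significance. PAX9 itself stood at 2.80 FPKM in siNT and 0.325 FPKM in siPAX9 (log2 change -3.10). All 8 epithelial markers looked for were present, summing to 3750 FPKM in siNT and 4359.8 FPKM in siPAX9. They were led by the basal keratins KRT5 (1558 and 1807 FPKM) and KRT17 (1718 and 2088 FPKM), and CDH1, the gene of E-cadherin, was at 45.3 and 124 FPKM. Of the 8 markers, 5 were higher and 3 lower in siPAX9, the lower being the luminal keratin KRT18 (212 and 119 FPKM), TP63 (35.4 and 25.3 FPKM) and EGFR (64.3 and 58.1 FPKM), and the part of these shifts in the results below was not tested. Of 5 markers of other cells, PTPRC, ESR1 and PGR stayed under 1 FPKM in both groups, COL1A1 was at 0.454 and 4.13 FPKM, and PECAM1 was at 2.58 and 0.495 FPKM, and their part in the results below was not tested.

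The sequences around the starts of these genes are shown for TAF1D and POLR1D, with large differences between the groups, for POLR1B, with the smallest, for CD3EAP, whose window held an E-box, and for POLR1C, whose window held a pair of overlapping ETS cores. ZNRD1, the polymerase subunit with the largest difference, is added for comparison. Each runs 5′ to 3′ on the gene's own strand from 150 bases before the RefSeq start to 30 bases after it (build GRCh38.p14), and capitals mark the searched letters. POLR1D and POLR1B each have 2 RefSeq starts, of which the one upstream is shown.
TAF1D: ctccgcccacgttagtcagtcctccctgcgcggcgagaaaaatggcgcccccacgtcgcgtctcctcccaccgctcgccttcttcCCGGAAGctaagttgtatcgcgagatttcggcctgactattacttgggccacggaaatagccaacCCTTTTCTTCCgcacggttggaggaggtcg
POLR1D: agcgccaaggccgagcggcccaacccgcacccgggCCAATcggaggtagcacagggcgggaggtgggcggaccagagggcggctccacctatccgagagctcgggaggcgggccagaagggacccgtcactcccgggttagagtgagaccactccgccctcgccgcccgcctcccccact
POLR1B: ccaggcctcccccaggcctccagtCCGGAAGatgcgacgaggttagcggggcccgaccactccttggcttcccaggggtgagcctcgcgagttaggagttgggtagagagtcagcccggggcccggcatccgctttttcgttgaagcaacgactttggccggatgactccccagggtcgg
POLR1C: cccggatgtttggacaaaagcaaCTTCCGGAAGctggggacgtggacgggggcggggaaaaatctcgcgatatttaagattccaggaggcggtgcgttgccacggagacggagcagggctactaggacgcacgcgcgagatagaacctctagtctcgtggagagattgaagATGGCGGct
CD3EAP: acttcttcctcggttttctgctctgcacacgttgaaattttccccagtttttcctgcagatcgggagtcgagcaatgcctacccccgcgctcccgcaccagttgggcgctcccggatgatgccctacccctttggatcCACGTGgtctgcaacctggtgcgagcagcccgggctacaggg
ZNRD1: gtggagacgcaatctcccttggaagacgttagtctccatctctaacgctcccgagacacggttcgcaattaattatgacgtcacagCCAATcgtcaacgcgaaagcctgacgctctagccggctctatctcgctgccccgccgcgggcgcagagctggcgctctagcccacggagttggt
These stretches lie at chr11:93741466-93741645 (minus strand) for TAF1D, chr13:27620593-27620772 (plus strand) for POLR1D, chr2:112541886-112542065 (plus strand) for POLR1B, chr6:43516939-43517118 (plus strand) for POLR1C, chr19:45406494-45406673 (plus strand) for CD3EAP and chr6:30061115-30061294 (plus strand) for ZNRD1.

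The search covered 300 bases for each start, 250 before it and 50 after it, on both strands, in 13 RefSeq windows of 9 members, all but POLR1E. The letters CACGTG, an E-box of the kind that MYC and related factors bind, were present in 1 of the 13 windows and in 7.26% of all 35116 windows. That match began 12 bases before the start of CD3EAP. The letters GCGTGACCA and GCGGAACGG, 2 of the PAX9 binding sequences given in the study, were found in 0 of the 13 windows, against 0.157% and 0.225% of all windows. The other PAX9 sequences named there were not searched. No match says only that these exact letters are not in these windows.

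The other letters were searched after the sequences had been seen. CCGGAAG, the core bound by ETS-family factors, was present in 6 of the 13 windows, which belonged to 4 members (POLR1B, POLR1C, RRN3 and TAF1D), and in 10.3% of all windows. Both RRN3 windows overlap and share 1 such stretch, which is counted in each, while the share over all windows also counts every window. In POLR1C both orientations overlap in a single stretch. CCAAT was present in 3 member windows, among them both overlapping RRN3 windows, and in 34.6% of all windows, and ATGGCGG, the letters of a YY1-type element, in 2 member windows and in 5.55% of all. The TAF1D start opened with a run of 11 C or T letters, the form known as a 5′ terminal oligopyrimidine tract. A C followed by at least 4 further pyrimidines at the start was found in 1 member window and in 4.07% of all windows. The matches describe letters and do not show that a factor binds there.

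All 10 genes had a lower FPKM in siPAX9 than in siNT, and none was lower by as much as 2-fold. Among the 12475 named loci compared (mean FPKM of at least 1 and above 0 in both groups), 55.3% were lower by any amount and 6.55% were at least 2-fold lower. Past 1.5-fold lower were 3 of the 10 members (TAF1D, POLR1E and POLR1D), against 16.4% of all named loci. Past 1.5-fold higher were 0 of 10, against 13.1%, and past 2-fold higher 0 of 10, against 6.28%. The median log2 change was -0.38 for the members and -0.07 for all named loci compared. In bulk RNA, fewer cells of a kind and less of an mRNA per cell cannot be told apart.

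Summed over the 10 genes, the level went from 522 FPKM in siNT to 327 FPKM in siPAX9, or 62.6% of the control. That sum rests mainly on TAF1D and POLR1D, the members with by far the highest levels. The 7 genes other than TAF1D, POLR1D and POLR1E summed to 128 and 105 FPKM (82.2% of the control), with a median log2 change of -0.24.

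**Figure D1:**
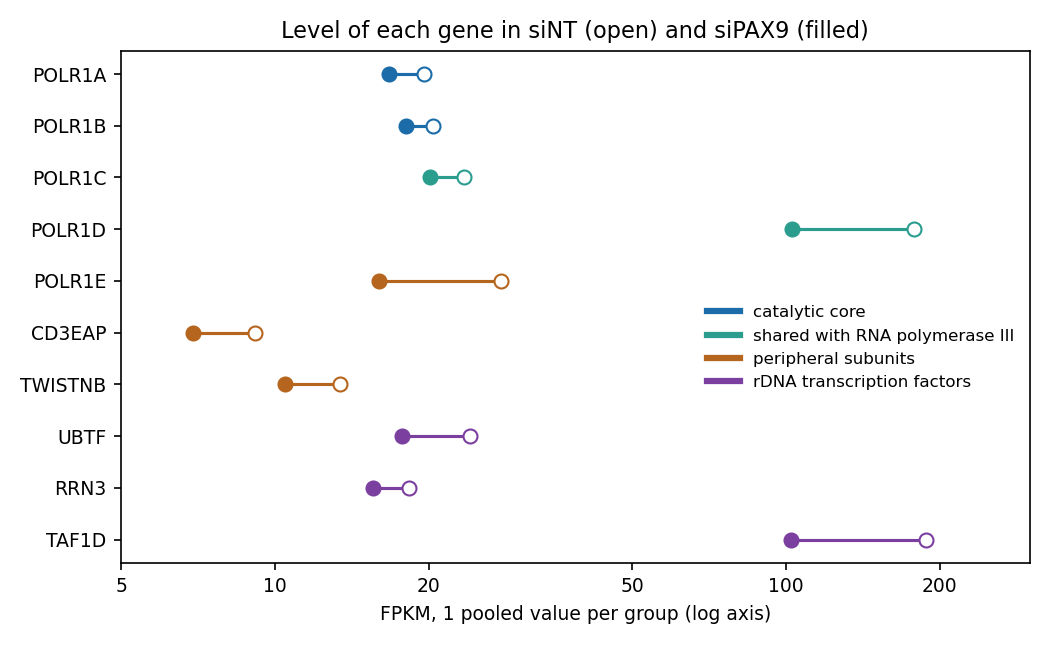
Level of each of the 10 genes in siNT (open circle) and siPAX9 (filled circle), with 1 pooled FPKM per group on a log axis and no error bar because the table gives none. Every filled circle lies to the left of its open circle, TAF1D and POLR1D sit above 100 FPKM in both groups, and the widest gaps are those of TAF1D, POLR1E and POLR1D.

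POLR1A and POLR1B encode the 2 largest subunits, which together form the catalytic cleft. POLR1A was at 19.6 FPKM in siNT and 16.7 FPKM in siPAX9 (log2 change -0.23). POLR1B was at 20.4 and 18.0 FPKM (log2 change -0.18), the smallest difference of the 10. The genes kept nearly equal levels, with a POLR1A to POLR1B ratio of 0.961 in siNT and 0.926 in siPAX9. Of all named loci compared, 41.1% had a change at or below that of POLR1B, so the difference was close to the middle of the table.

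The POLR1A locus lies at chr2:86246959-86333278 in hg19, on the minus strand with 34 exons in its canonical transcript. Its row also carries the symbol LOC90784. Loci here and below are the spans of the deposited rows, which can differ from the annotated genes, unless the annotated gene is named. POLR1B lies at chr2:113299233-113340556 on the plus strand with 15 exons. A further POLR1B row within the same span had 3.14 FPKM in siNT and 3.53 FPKM in siPAX9 (log2 change 0.17), so this lower row differed in the other direction. The uncharacterised LOC105373562 in that span was at 0 and 0.371 FPKM. An annotated Y_RNA also overlaps the canonical exons of POLR1B.

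POLR1C and POLR1D encode the paired subunits that nucleate assembly of the enzyme and are shared with RNA polymerase III, the polymerase of 5S rRNA and tRNA genes. POLR1C stood at 23.4 FPKM in siNT and 20.1 FPKM in siPAX9 (log2 change -0.22). POLR1D stood at 178 and 103 FPKM (log2 change -0.79), or 57.8% of the control. The partners therefore differed unequally, and the ratio of POLR1D to POLR1C was 7.60 in siNT and 5.11 in siPAX9. Levels per kilobase are compared in that ratio, and the short canonical transcript of POLR1D (693 bases) sits beside 1275 bases for POLR1C.

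The POLR1D locus lies at chr13:28194880-28241559 on the plus strand, and no exon of another annotated gene overlaps its canonical exons. The POLR1C row lies at chr6:43484762-43543812 on the plus strand, in a span shared with XPO5, a nuclear export receptor for precursor microRNAs. The annotation places the POLR1C gene at chr6:43477440-43530156. The annotated gene ENSG00000271754 overlaps the canonical exons of POLR1C. XPO5 was at 20.0 and 11.4 FPKM (log2 change -0.82), so these neighbours differed in size of change while sharing a span.

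The peripheral subunits POLR1E, CD3EAP and TWISTNB belong to RNA polymerase I alone. POLR1E and CD3EAP form a subcomplex that aids initiation and elongation, and TWISTNB belongs to the stalk with which RRN3 makes contact. POLR1E was at 27.7 FPKM in siNT and 16.0 FPKM in siPAX9 (log2 change -0.80), 57.6% of the control. Only 10.1% of named loci had a change at or below that of POLR1E. By level it stood at position 3 of the 10 in siNT and at position 7 in siPAX9, the largest move in the order.

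CD3EAP, the partner of POLR1E, was the lowest member in both groups, at 9.15 and 6.91 FPKM (log2 change -0.41). The ratio of POLR1E to CD3EAP was 3.03 in siNT and 2.31 in siPAX9. TWISTNB was at 13.4 and 10.5 FPKM (log2 change -0.36). The 3 peripheral members together were at 66.3% of the control sum, and the catalytic pair at 86.9%.

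POLR1E lies at chr9:37485932-37510443 with 12 exons on the plus strand and TWISTNB at chr7:19735085-19748660 with 4 exons on the minus strand, and no exon of another annotated gene overlaps the canonical exons of either. The annotated CD3EAP gene, at chr19:45909902-45913995, shares exons with ERCC1, a DNA repair nuclease subunit on the opposite strand. The CD3EAP row spans more, chr19:45882710-45927177, and also overlaps the row of PPP1R13L. ERCC1 was at 38.2 and 26.2 FPKM (log2 change -0.55) and PPP1R13L at 25.6 and 27.1 FPKM (log2 change 0.08). The strand setting of the counting is not given in the sources used here, so reads from CD3EAP and ERCC1 cannot be told apart where their exons overlap.

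The remaining subunits of RNA polymerase I are ZNRD1 and 5 small subunits found in all 3 nuclear polymerases. ZNRD1, which helps the enzyme cleave and release backtracked RNA, was at 26.1 FPKM in siNT and 10.0 FPKM in siPAX9 (log2 change -1.38). Its 7 other rows, on alternative haplotype sequences of hg19, were listed at 0 in both groups. The annotated gene POLR1HASP overlaps the canonical exons of ZNRD1, and reads from that overlap cannot be assigned to either gene here. ZNRD1 was the only subunit of the 13 past 2-fold lower, against 6.55% of all named loci, and its ratio to POLR1B was 1.28 in siNT and 0.556 in siPAX9. Of the 5 common subunits, 4 were lower, against 55.3% of all named loci. The 5 had a median log2 change of -0.15, from -0.47 for POLR2H (60.9 and 43.9 FPKM) to 0.01 for POLR2E (27.6 and 27.8 FPKM).

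Across all 13 subunits, 12 were lower and 3 were at least 1.5-fold lower, with a median log2 change of -0.29, against 55.3% and 16.4% of all named loci. Their summed level was 591 FPKM in siNT and 437 FPKM in siPAX9, or 73.9% of the control. The 6 subunits that only RNA polymerase I uses were all lower, with a median of -0.38. The mRNA levels of the parts of this enzyme thus differed by unequal amounts between the groups, from -1.38 to 0.01 on the log2 scale.

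**Figure D2:**
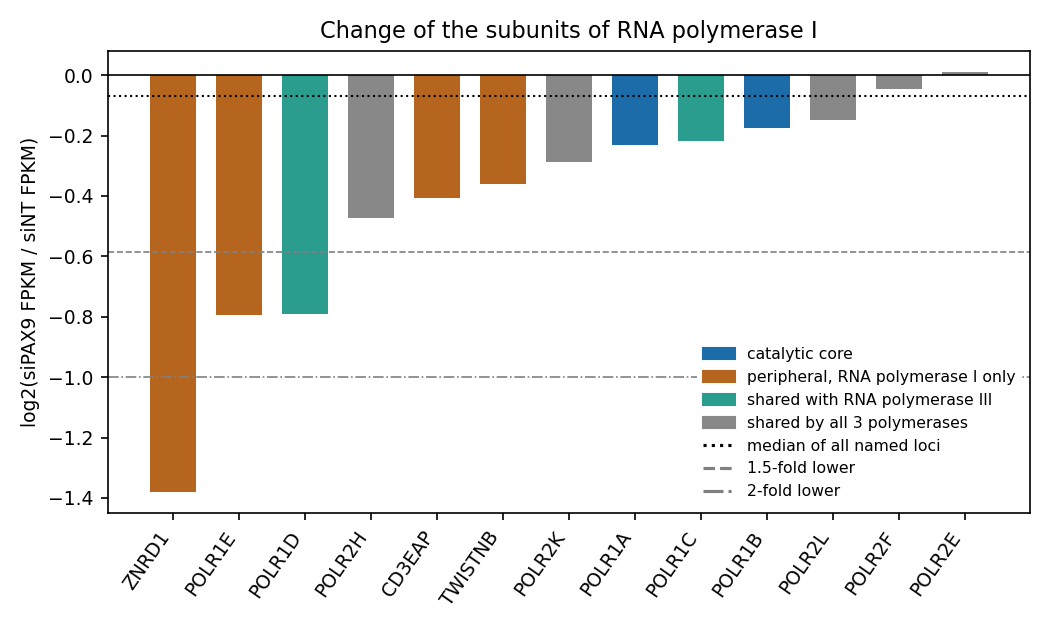
Log2 ratio of siPAX9 FPKM to siNT FPKM for the 13 subunits of RNA polymerase I, ordered by size, with 1 bar per subunit coloured by its place in the enzyme and no error bars. ZNRD1 is the only bar past the 2-fold line, POLR1E and POLR1D pass the 1.5-fold line, and POLR2E is the only bar above 0.

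UBTF, the architectural factor of active rDNA, was at 24.1 FPKM in siNT and 17.8 FPKM in siPAX9 (log2 change -0.44), 73.6% of the control. RRN3, the initiation factor, was at 18.3 and 15.5 FPKM (log2 change -0.24). The ratio of UBTF to RRN3 was 1.32 in siNT and 1.14 in siPAX9. UBTF lies at chr17:42282400-42301121 on the minus strand with 21 exons in its canonical transcript, and its splice forms, which differ in activity, are not separated in the table. The annotated noncoding gene ATXN7L3-AS1 overlaps a UBTF exon, and reads from that overlap cannot be told apart without strand.

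RRN3 has near-identical copies, between which the authors' counting could have split reads, so its value is uncertain. The RRN3 row spans chr16:15068592-15233267, while the annotated gene lies at chr16:15153890-15188168. This row overlaps those of PDXDC1 (26.4 and 29.7 FPKM) and NTAN1 (6.06 and 6.85 FPKM). It also overlaps LOC100505915 (0.625 and 0.377 FPKM) and a row of MIR6511B1 with PKD1P6-NPIPP1 (10.5 and 8.37 FPKM). Stretches of the canonical RRN3 transcript (3706 bases) matched RRN3P1 over 860 bases at 98.4% identity, RRN3P2 over 669 bases at 98.7% and RRN3P3 over 581 bases at 98.5%. The pseudogene rows were low, at 1.19 and 1.05 FPKM for RRN3P1, 1.78 and 1.90 FPKM for RRN3P2, and 2.06 and 2.91 FPKM for RRN3P3. RRN3 stayed above these 3 rows in both groups. A transcript annotated under the gene CDR2 matched over 579 bases at 98.4%. The CDR2 row, at 7.35 and 9.11 FPKM, is that of the whole gene and not the level of an RRN3 copy. The noncoding genes ENSG00000284671 (870 bases, 98.6%) and ENSG00000291066 (636 bases, 98.3%) also matched, and their levels were not analysed here. No other member had a match of at least 300 bases at 90% identity or more to another gene.

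TAF1D, a subunit of SL1, had the largest difference of the 10. Its row was at 188 FPKM in siNT and 102 FPKM in siPAX9 (log2 change -0.88), 54.3% of the control and 1.84-fold lower. Only 8.32% of named loci had a change at or below it. The row was the highest member in siNT, and POLR1D was the highest in siPAX9.

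That row does not measure TAF1D alone. It spans chr11:93394816-93474703 and carries 9 other symbols, 8 small nucleolar RNAs (SNORA1, SNORA8, SNORA18, SNORA25, SNORA32, SNORA40, SNORD5 and SNORD6) and the microRNA gene MIR1304. All 9 lie inside the annotated TAF1D gene, on its minus strand, downstream of the end of the canonical TAF1D transcript. The part of the 188 and 102 FPKM that belongs to the TAF1D mRNA cannot be told apart from theirs. Rows of this kind, in which a small nucleolar RNA is listed with a longer host gene, numbered 33. Of these, 29 were lower, against 55.3% of all named loci, and the median log2 change was -0.65, against -0.07. In that group 57.6% were at least 1.5-fold lower, against 16.4% of all named loci. A change at or below that of the TAF1D row was found in 33.3%, against 8.32%.

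CEP295 and SCARNA9, whose rows share the span of the TAF1D row, were higher in siPAX9. CEP295, a centriole protein gene on the plus strand, was at 2.02 and 2.32 FPKM, and the small Cajal body RNA SCARNA9 at 7.18 and 10.8 FPKM (log2 change 0.59). The other SL1 subunits had single-symbol rows. TAF1A was at 8.90 FPKM in siNT and 5.69 FPKM in siPAX9 (log2 change -0.65) and TAF1B at 12.2 and 9.53 FPKM (log2 change -0.35). TBP, which all 3 polymerases use, was at 11.5 and 12.1 FPKM, and TAF1C at 9.58 and 9.45 FPKM. The ratio of the TAF1D row to TAF1A was 21.1 in siNT and 18.0 in siPAX9.

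Differences in this table varied with level, which bears on how TAF1D and POLR1D compare with other genes. Of the 313 named loci with a mean of 100 to 200 FPKM, which include both, the median log2 change was -0.23 and 25.2% were at least 1.5-fold lower. In that band 11.2% had a change at or below that of TAF1D and 15.7% at or below that of POLR1D. The other 8 members lay between 5 and 30 FPKM, where the median of 6680 loci was -0.06 and 14.1% were at least 1.5-fold lower. There 8.23% had a change at or below that of POLR1E. These bands were chosen after the values were seen.

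**Figure D3:**
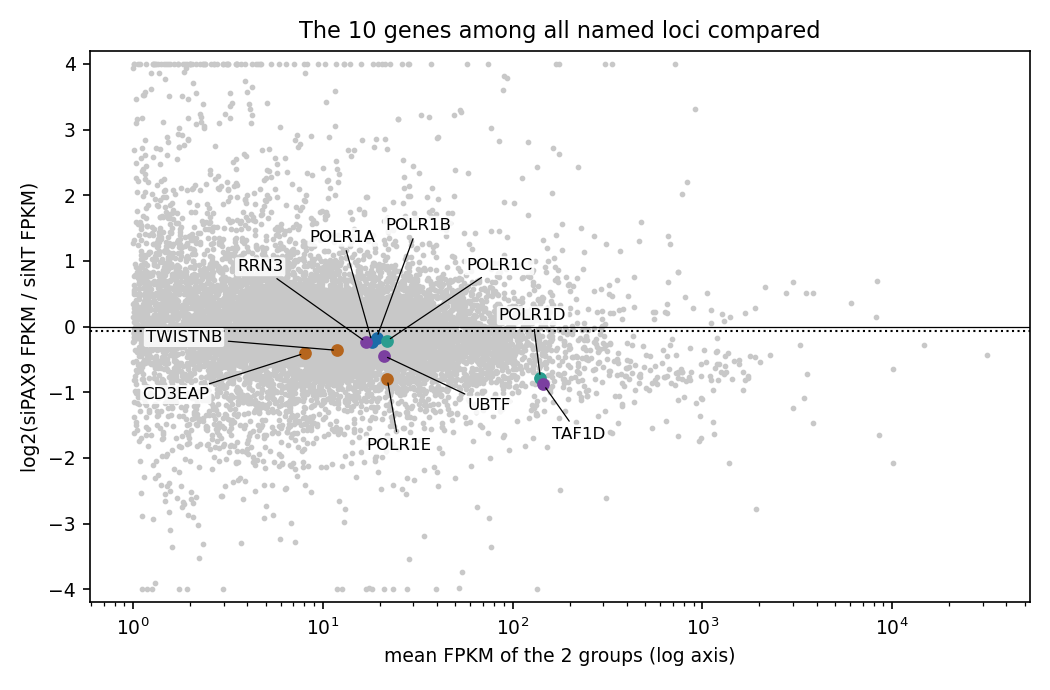
Log2 ratio of siPAX9 to siNT FPKM against mean FPKM (log axis) for the 12475 named loci compared (grey, with ratios beyond 4 in either direction drawn at 4 or -4) and the 10 genes (coloured by role, with the colours of the plot of levels). The solid line marks 0 and the dotted line the median of all named loci, -0.07. All 10 genes lie below the dotted line and within the grey cloud, and TAF1D and POLR1D stand to the right of the rest.

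Proteins that act on rDNA transcription without being part of the basal machinery were split in direction much like all named loci. Of 17 such regulators, 9 were lower, against 55.3% of all named loci, and 8 were higher, with a median log2 change of -0.35. NPM1, the nucleolar histone chaperone nucleophosmin, was at 941 FPKM in siNT and 347 FPKM in siPAX9 (log2 change -1.44). ERCC6, a chromatin remodeller of transcription-coupled repair whose row also carries PGBD3, was at 4.89 and 11.8 FPKM (log2 change 1.28). They were the only regulators past 2-fold, 1 lower, against 6.55% of all named loci, and 1 higher, against 6.28%. TCOF1, the treacle protein that binds UBTF in the nucleolus, was at 26.6 and 14.1 FPKM (log2 change -0.91), and MYC, which acts on rDNA and on the genes of this machinery, at 394 and 248 FPKM (log2 change -0.67). TCOF1 and MYC were picked with their values already known.

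The transcription-coupled subunits of the small-subunit processome, which bind the nascent precursor, numbered 6 in the list. Of these, 5 were lower and 0 at least 1.5-fold lower, against 55.3% and 16.4% of all named loci, with a median log2 change of -0.37. HEATR1 was at 36.8 and 25.9 FPKM (log2 change -0.51) and NOL11 at 20.9 and 15.2 FPKM (log2 change -0.46).

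The other polymerases give the comparison for the subunits that RNA polymerase I does not share. Of the 11 subunits of RNA polymerase III alone, 7 were lower, against 55.3% of all named loci, and none passed 1.5-fold in either direction, with a median log2 change of -0.06. POLR3GL was at 7.96 and 5.58 FPKM (log2 change -0.51) and POLR3D at 15.3 and 11.4 FPKM (log2 change -0.42). Of the 16 factors that recruit or restrain RNA polymerase III, 10 were lower and 3 at least 1.5-fold lower, against 55.3% and 16.4% of all named loci, with a median of -0.11. GTF3A, the 5S rRNA gene factor TFIIIA, was at 76.0 and 41.3 FPKM (log2 change -0.88), and SNAPC2, of the complex at snRNA promoters, at 14.1 and 9.15 FPKM (log2 change -0.62).

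Among the 7 subunits of RNA polymerase II alone, 5 were lower, against the same 55.3%, with a median log2 change of -0.09. POLR2A, its largest subunit, was at 18.1 FPKM in siNT and 30.3 FPKM in siPAX9 (log2 change 0.74), while POLR1A, its counterpart in RNA polymerase I, was at 19.6 and 16.7 FPKM. POLR2G, a stalk subunit, was at 21.2 and 15.3 FPKM (log2 change -0.47). The medians of the subunits particular to each enzyme were thus -0.38, -0.06 and -0.09 for RNA polymerases I, III and II, a description with no test of the difference.

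**Figure D4:**
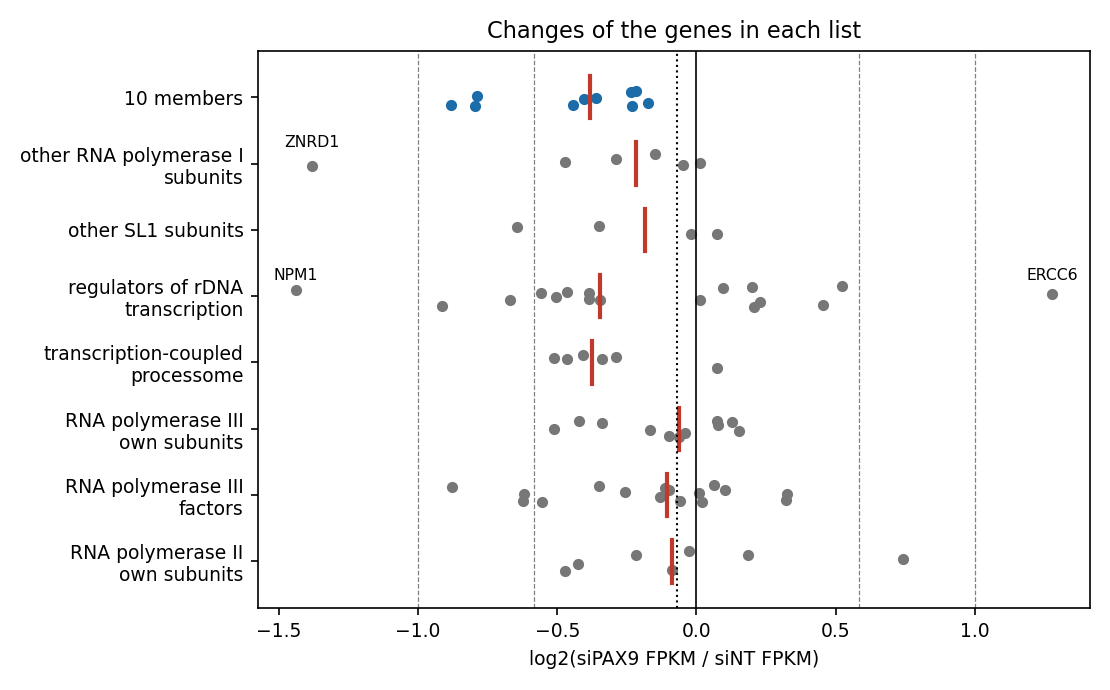
Log2 ratio of siPAX9 to siNT FPKM of each gene in 8 lists, 1 point per gene with vertical scatter for legibility and a red bar at each list's median. The dotted line marks the median of all named loci compared and the dashed lines 1.5-fold and 2-fold in either direction. All points of the 10 members lie left of 0, and ZNRD1, NPM1 and ERCC6 are the only points past 2-fold.

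The table holds no usable value for the product of the machinery. Of 4 rDNA transcripts sought by symbol, RNA45S5 and RNA5-8S5 were in the table, and both were listed at 0 in both groups. The libraries were made from polyadenylated RNA, which leaves out most ribosomal RNA, so these values say nothing of how much rDNA was transcribed.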

How the data were processed

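RNA of MCF10A cells, 3 siNT and 3 siPAX9 samples, was sequenced by the authors as single-end poly(A)+ libraries. The submitters' processing notes name Bowtie2, Cufflinks, Partek and the build hg19. How the libraries were scaled against each other, the strand of the libraries and the versions of Bowtie2 and Cufflinks are not given in the sources used here. The authors deposited 1 table with 1 pooled FPKM per locus and group and no read counts. The study's methods state total reads only as a range over the samples, which gives neither the depth of each sample nor the reads behind an FPKM. Its other columns hold the authors' log2 fold change, test statistic, p-value and q-value, which were not used. The status column marks 27319 loci as holding enough reads, and all 10 genes are among them.

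From the deposited FPKM, log2(siPAX9/siNT) was computed with no pseudocount, over loci with a symbol, a mean FPKM of at least 1 and a value above 0 in both groups. A locus counted as called past 2-fold or 1.5-fold, and the counting was tested on simulated data. The genes and lists were chosen with earlier results of these data known. Named in the text were the 10 genes, PAX9 and genes overlapping the locus of a member or of ZNRD1. In each other list, those past 2-fold or else the 2 largest changes were named. Other names were added after their values were seen: those of markers, RRN3 copies, POLR2H, POLR2E, TBP, TAF1C, TCOF1 and MYC. With 2 values per gene no likeness between patterns could be measured. Alternatives were a pseudocount, centring on the median, other filters, other sets of loci and the sum of all rows of a gene.

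Loci are given from 1 in hg19, and gene models come from GENCODE release 44 on GRCh37, in which all 10 genes were matched, 2 under a newer symbol. Of 21512 loci with 1 symbol on their gene's chromosome, 99.13% overlapped that gene. Canonical transcripts were searched with blastn 2.17.0 (word size 28, at least 90% identity and 300 bases). Promoter windows are those of RefSeq on GRCh38.p14, with coordinates of that build only. Python 3.11.15, numpy 2.4.6, pandas 2.3.3 and matplotlib 3.10.9 were used.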

Additional observations from a re-analysis of the deposited data

How the results depend on the processing

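No paired analysis was possible because the table holds 1 pooled value per group. For the same reason no replicate could be left out, and the authors' grouping of samples could not be checked. The summaries were recomputed under 10 other settings, 9 planned and 1 added after the data were seen, which restricted the comparison to named loci in the FPKM range of the members. Under each, 0 members were past 2-fold lower, 2 or 3 past 1.5-fold lower and 0 past 1.5-fold higher, with 2 when only loci with a single symbol were kept, since the rows of TAF1D and POLR1A then drop out. The median of the members ran from -0.38 to -0.32, the latter after centring on the median of all named loci. The share of named loci at least 2-fold lower ran from 4.51% to 8.20% and that at least 1.5-fold lower from 13.9% to 17.3%, and over all loci, with or without a symbol, they were 8.74% and 19.6%. All 98 recomputed log2 changes of single members were below 0, from -0.88 to -0.11. Without read counts per locus or a spread between samples, small differences such as those of POLR1A, POLR1B, POLR1C and RRN3 could not be given an error here, since the authors' own test columns were not used.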
